A study of Mus musculus with 104 samples.

Results

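The regions described here are 1 kb tiles of the 4 mouse Hox clusters. They were chosen by position alone, as the tiles of the mm9 windows chr6:52080000-52239999 (Hoxa), chr11:96040000-96259999 (Hoxb), chr15:102740000-102879999 (Hoxc) and chr2:74450000-74649999 (Hoxd), with at least 10 bisulfite reads over their CpGs in each of 3 pools of embryos. Of 720 tiles in the windows, 473 were kept, out of 710364 kept in the whole genome. The kept tiles numbered 120 of 160 in Hoxa, 150 of 220 in Hoxb, 91 of 140 in Hoxc and 112 of 200 in Hoxd. The 247 tiles left out held a median of 6 CpGs against 21 in those kept, so that the kept tiles stand for the CpG-rich part of each window.

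CpG methylation was measured by STEM-seq, which converts the DNA of small samples with bisulfite, in mouse embryos lacking Kmt2b and in wild-type (WT) embryos. Kmt2b (listed as Wbp7 in the RNA table) encodes a histone methyltransferase, and the knockout (KO) is given as Kmt2b-/- with no further detail of the allele. The pools were KO epiblast at E6.5 (3 samples), KO head at E8.5 (2 samples) and WT head at E8.5 (2 samples), and per the series design the embryos came from DBA2 males mated with C57BL/6N females. Heads were cut off near the neck, and no treatment is given for any group. Each deposited file pools the reads of its group, so there is 1 measurement per group, no spread between embryos can be had, and every test below compares pools of reads and not genotypes or stages. WT epiblast methylation was not analysed here.

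Hox genes encode homeodomain transcription factors that give cells their position along the body axis, and their order along each chromosome follows their order of expression along the embryo. Genes at the 3′ end of a cluster (such as Hoxb1) are used first and farthest forward, up to the hindbrain, and genes at the 5′ end (such as Hoxa13 and Hoxd13) last and farthest back. Silent Hox clusters are a textbook example of long domains held by Polycomb complexes, and their CpG islands are usually free of DNA methylation while the clusters are silent.

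Promoters show the DNA in question. RefSeq promoter windows, each 250 bases before to 50 bases after a gene's start, were placed in mm9 where the spacing of their CpGs matched the CpG positions in the files exactly and at 1 place in the genome. Of the 22 Hox genes with a listed window, 20 were placed. The other two, Hoxa9 and Hoxd4, had windows with 4 CpGs, under the minimum of 6 used for placing. The 7 promoters below are shown because the results turn on them, being the most deeply read one without methylation (Hoxa6), those described for their epiblast levels (Hoxa13, Hoxd9 and Hoxd13), the one with the highest head level (Hoxb8), the one of a gene with higher RNA in KO heads (Hoxb1) and the one Hox promoter placed in the Hoxc window (Hoxc4). They are RefSeq sequence of GRCm38.p6, 5′ to 3′ along the gene's strand, at chr6:52208623-52208922, minus strand, for Hoxa6, chr6:52260831-52261130, minus strand, for Hoxa13, chr11:96365508-96365807, plus strand, for Hoxb1 and chr11:96281655-96281954, plus strand, for Hoxb8. The Hoxc4 and Hoxd promoters lie at chr15:103034145-103034444, plus strand, for Hoxc4, chr2:74697513-74697812, plus strand, for Hoxd9 and chr2:74667975-74668274, plus strand, for Hoxd13. Capitals mark CpGs, the only bases at which methylation was counted.

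Hoxa6: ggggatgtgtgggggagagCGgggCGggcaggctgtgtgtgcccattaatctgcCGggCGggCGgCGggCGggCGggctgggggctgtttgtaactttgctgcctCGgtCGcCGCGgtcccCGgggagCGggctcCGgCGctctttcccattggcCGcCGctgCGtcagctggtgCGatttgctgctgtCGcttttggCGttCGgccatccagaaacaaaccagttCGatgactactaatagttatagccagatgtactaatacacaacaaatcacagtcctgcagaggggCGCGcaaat
Hoxa13: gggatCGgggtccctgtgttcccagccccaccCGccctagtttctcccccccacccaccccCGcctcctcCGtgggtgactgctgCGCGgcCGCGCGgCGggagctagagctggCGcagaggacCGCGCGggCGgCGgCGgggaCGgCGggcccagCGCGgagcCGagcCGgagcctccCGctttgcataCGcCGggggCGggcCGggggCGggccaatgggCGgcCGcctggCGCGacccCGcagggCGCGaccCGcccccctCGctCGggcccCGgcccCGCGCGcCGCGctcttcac
Hoxb1: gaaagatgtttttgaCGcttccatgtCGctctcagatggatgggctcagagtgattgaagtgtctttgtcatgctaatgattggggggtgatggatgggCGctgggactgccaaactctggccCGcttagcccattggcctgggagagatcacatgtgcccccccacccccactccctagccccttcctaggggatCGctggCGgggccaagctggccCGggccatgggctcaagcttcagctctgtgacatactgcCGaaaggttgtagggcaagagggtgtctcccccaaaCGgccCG
Hoxb8: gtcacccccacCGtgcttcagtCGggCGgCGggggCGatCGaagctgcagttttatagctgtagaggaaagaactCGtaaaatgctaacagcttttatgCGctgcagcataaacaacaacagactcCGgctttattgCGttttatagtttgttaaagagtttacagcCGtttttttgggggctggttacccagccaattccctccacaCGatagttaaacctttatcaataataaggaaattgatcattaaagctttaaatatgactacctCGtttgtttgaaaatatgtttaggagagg
Hoxc4: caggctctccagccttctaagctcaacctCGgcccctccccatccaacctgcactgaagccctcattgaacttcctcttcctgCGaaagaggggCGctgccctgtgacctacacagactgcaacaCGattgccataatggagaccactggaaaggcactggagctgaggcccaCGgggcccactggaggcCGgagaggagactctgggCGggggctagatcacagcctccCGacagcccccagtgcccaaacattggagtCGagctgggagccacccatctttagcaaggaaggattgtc
Hoxd9: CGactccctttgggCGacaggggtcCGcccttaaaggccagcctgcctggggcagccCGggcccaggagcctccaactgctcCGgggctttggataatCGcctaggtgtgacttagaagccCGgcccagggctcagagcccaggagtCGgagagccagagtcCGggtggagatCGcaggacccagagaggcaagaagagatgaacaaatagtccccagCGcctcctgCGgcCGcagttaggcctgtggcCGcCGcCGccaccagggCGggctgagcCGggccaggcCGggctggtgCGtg
Hoxd13: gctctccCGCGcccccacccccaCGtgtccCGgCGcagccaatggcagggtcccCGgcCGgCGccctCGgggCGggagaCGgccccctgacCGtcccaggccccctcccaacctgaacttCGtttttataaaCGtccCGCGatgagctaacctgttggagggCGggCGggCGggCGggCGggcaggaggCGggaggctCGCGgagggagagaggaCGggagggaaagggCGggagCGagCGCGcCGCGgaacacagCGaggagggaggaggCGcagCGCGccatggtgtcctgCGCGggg

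Over the 7 windows, CpG number ran from 9 in Hoxc4 to 45 in Hoxa13, where 81% of bases were G or C.

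The kept Hox tiles held less CpG methylation than the genome in all 3 pools. Over all kept tiles, methylated reads made up 10.6% of reads in the KO epiblast (2522 of 23880, Wilson 95% interval 10.2 to 10.96), 6.49% in the KO head (2713 of 41790, 6.26 to 6.73) and 6.82% in the WT head (3098 of 45458, 6.59 to 7.05). The same shares over all kept tiles of the genome were 64.1%, 61.8% and 62.3%. Summed reads weight the CpG-rich tiles most: with every tile counted equally, the means were 19.5%, 17.1% and 17.6%, against 73.8%, 76.4% and 77.0% in the genome. The tiles that were not kept stood higher, in the WT head at 58.0% in Hoxd, 33.3% in Hoxa, 32.3% in Hoxb and 19.4% in Hoxc. Intervals cover counting error only: reads carried no molecular identifiers, and neighbouring CpGs read on 1 fragment were counted apart.

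Over whole windows, by summed reads of 1 kb tiles, the same clusters were lowest and highest in each pool. Hoxc was lowest, at 5.19% in the KO epiblast, 2.07% in the KO head and 2.42% in the WT head, and Hoxb was highest, at 13.0%, 10.5% and 11.7%. Hoxa had 10.7%, 6.04% and 6.27%, and Hoxd 11.6%, 6.30% and 5.88%. In the KO epiblast the place of Hoxb depended on the setting, with Hoxd higher in 2 kb tiles (14.9% against 14.6%) and Hoxa higher in 500 bp tiles (9.25% against 9.09%) and on the second strand alone (8.45% against 8.31%). Hoxa minus Hoxd was in the WT head 0.392 percentage points (Newcombe 95% interval -0.191 to 0.978), in the KO head -0.257 points (-0.888 to 0.376) and in the KO epiblast -0.851 points (-1.94 to 0.241). That order depended on the read minimum: in the WT head, with 5 reads Hoxd stood at 8.53% (8.08 to 8.998) and Hoxa at 6.96% (6.53 to 7.41), and with 20 reads Hoxd at 3.28% (2.98 to 3.60) and Hoxa at 4.15% (3.797 to 4.53). Hoxb exceeded Hoxc by 9.23 points in the WT head (8.56 to 9.91), 8.39 points in the KO head (7.75 to 9.04) and 7.84 points in the KO epiblast (6.80 to 8.88).

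Tiles were also counted by level. A tile was called low at or under 10% methylation and high at or above 70%. Low tiles numbered 289 of 473 (61.1%) in the KO epiblast, 350 (74.0%) in the KO head and 344 (72.7%) in the WT head, against 3.31%, 3.83% and 4.07% of all kept tiles of the genome. In the WT head, 81 of 91 Hoxc tiles were low, 89 of 120 in Hoxa, 75 of 112 in Hoxd and 99 of 150 in Hoxb. High tiles in that pool numbered 18 in Hoxa, 30 in Hoxb, 0 in Hoxc and 18 in Hoxd. By this count Hoxb and Hoxd lay close in the KO head, with 66.7% and 66.1% of tiles low and 17.3% and 17.9% high, and in the KO epiblast 14.7% and 15.2% were high. A core of 263 tiles was low in all 3 pools and 34 were high in all 3, while 59 were low in both heads and not in the KO epiblast and 3 were low in the KO epiblast and in neither head.

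Methylation differed by position within the windows. In Hoxa, the first 20 kb (chr6:52080000-52099999) stood at 82.7% in the WT head, and the next 20 kb, which hold no placed promoter other than that of Hoxa2, at 1.61%. The step lay between the tile chr6:52093000-52093999, with 12 of 16 reads methylated in the WT head (75%), 7 of 16 in the KO head (43.8%) and 6 of 13 in the KO epiblast (46.2%), and the tile chr6:52100000-52100999, with 3 of 77 (3.90%), 3 of 88 (3.41%) and 1 of 42 (2.38%). At the other side, past Hoxa13, the last low tile of the WT head (chr6:52226000-52226999, 2 of 34 reads, 5.88%) stood 2 kb from a tile at 76.5% (chr6:52228000-52228999, 13 of 17 reads). That last low tile was at 9.52% in the KO head and 33.3% in the KO epiblast, the latter from 12 reads.

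Hoxd had high tiles on both sides too. Its outer low tiles in the WT head, chr2:74486000-74486999 (1 of 61 reads, 1.64%) and chr2:74601000-74601999 (10 of 780 reads, 1.28%), stood 6 kb and 12 kb from the nearest high tiles. The second of these holds the placed start of Hoxd1, the 3′ end of the cluster. Over the low stretch between chr2:74490000 and chr2:74609999, the 20 kb steps ranged from 1.47% to 4.45% in the WT head, and the 20 kb steps outside it from 34.2% to 79.5%.

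Hoxb differed in having a methylated stretch inside the window. The 20 kb at chr11:96080000-96099999 stood at 73.2% in the WT head, 62.7% in the KO head and 61.1% in the KO epiblast, with 11, 9 and 9 of 14 tiles high. It lies between the placed promoters of Gm30134, which RefSeq lists next to Hoxb13, and Gm51876, which RefSeq lists on the Hoxb13 side of Hoxb9. From chr11:96120000 to chr11:96219999, where Hoxb8, Hoxb4 and Hoxb3os were placed, the 20 kb steps held 2.02% to 4.51% in the WT head. Hoxb13 is known to lie far from the other Hoxb genes.

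Hoxc had no methylated stretch in its window. Its 7 steps of 20 kb ranged from 1.99% to 3.16% in the WT head, from 1.13% to 2.72% in the KO head and from 1.66% to 9.05% in the KO epiblast. At the low side, the first tile of the window (chr15:102740000-102740999) was itself low, at 0% in the WT head. At the other side, the last low tile of the WT head was chr15:102872000-102872999. It stood at 5.56% there and at 15.4% in the KO epiblast. No high tile of the WT head lay beyond either, so the edges of this domain were not seen.

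Without the sides of the windows, the head levels of the clusters lay close to each other. Between the outermost placed Hox promoters, the WT head stood at 2.61% in Hoxa (Wilson 95% interval 2.32 to 2.94), 2.82% in Hoxb (2.45 to 3.26) and 2.33% in Hoxd (2.06 to 2.63), beside 2.42% in the whole Hoxc window. KO head levels there were 2.78%, 3.04% and 2.62%. The KO epiblast stood at 7.82% in Hoxa (7.13 to 8.56), 4.88% in Hoxb (4.25 to 5.61) and 5.75% in Hoxd (5.12 to 6.45), so that Hoxb, the highest over whole windows, was the lowest of these 3 in that pool, with an interval apart from that of Hoxa. The order of the clusters given above thus depends on the windows. These spans hold unlike sets of genes, reaching Hoxa13 and Hoxd13 at the 5′ side of Hoxa and Hoxd but only Hoxb8 in Hoxb. That of Hoxa takes in the tile of the Hoxa13 start, at 21.7% in the KO epiblast.

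**Figure D1:**
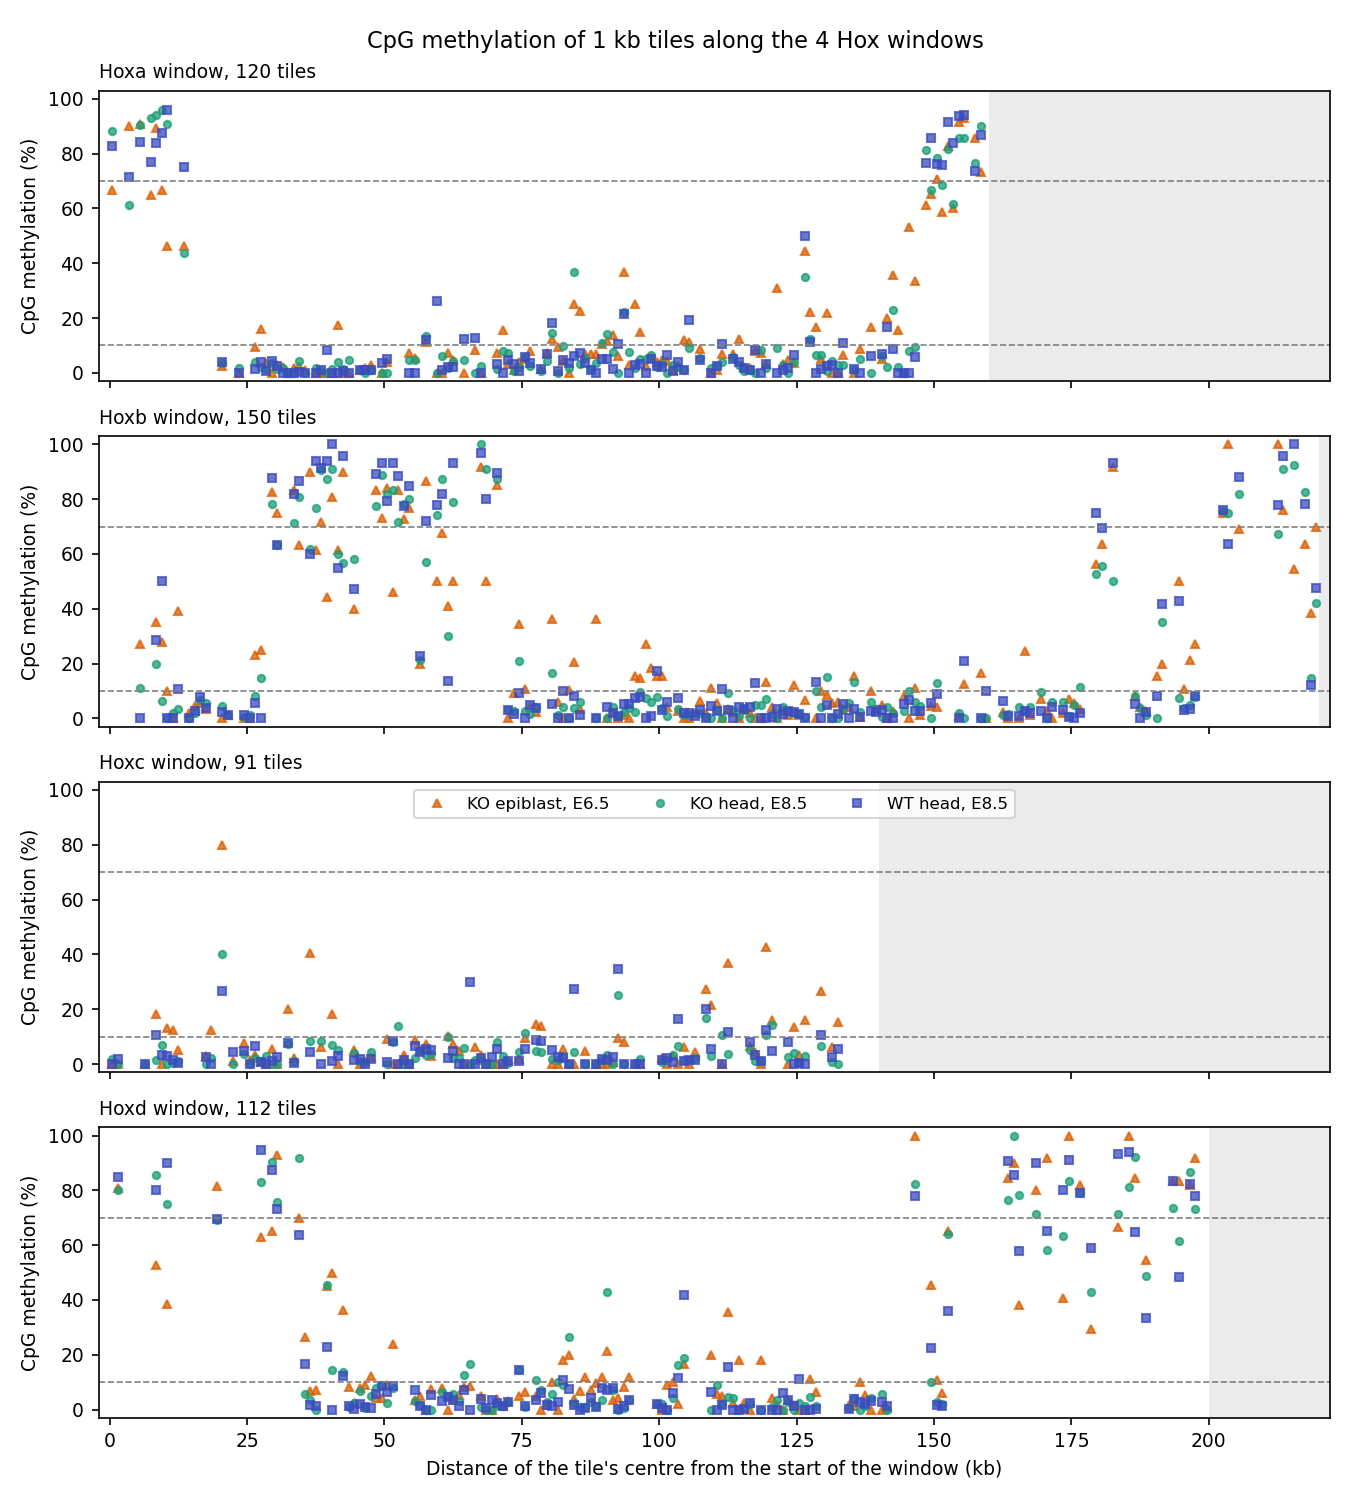
Each point is 1 kept tile, placed by its distance in kb from the start of its window, with its CpG methylation in percent in each of the 3 pools; dashed lines mark 10% and 70%, and grey marks the end of a window. Tiles near 0 fill the middle of each window in all 3 pools, high tiles lie at both sides of Hoxa and Hoxd, at the far side of Hoxb and inside Hoxb, and 1 Hoxc tile, in the KO epiblast, passes 70%.

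The longest uninterrupted run of low tiles was 24 tiles in the KO head, in Hoxb (chr11:96143000-96166999), a stretch that starts at the placed start of Hoxb8. Longest runs in the other clusters of the KO head were 12 tiles in Hoxa (chr6:52174000-52185999, with the first of the Hoxa10 starts), 12 in Hoxc (chr15:102801000-102812999) and 9 in Hoxd (chr2:74493000-74501999, with Evx2). The WT head had 11 in Hoxa (chr6:52161000-52171999), 9 in Hoxb (chr11:96130000-96138999), 9 in Hoxc (chr15:102790000-102798999) and 12 in Hoxd (chr2:74533000-74544999, with Hoxd9 and Hoxd8). In the KO epiblast the runs were 8, 9, 11 and 7 tiles. A run ends at any tile with too few reads, so these lengths also depend on which tiles had reads. The Hoxb run of 24 tiles in the KO head fell to 9 with low set at 5% and to 8 with a minimum of 20 reads. The Hoxb run of 9 tiles in the WT head rose to 24 with low set at 20% and to 20 with a minimum of 5 reads, so the order of the heads by this run depends on the thresholds. The median reads per kept tile were 30 in the KO epiblast, 48 in the KO head and 56 in the WT head.

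Low methylation reached tiles with fewer than 20 CpGs, which are elsewhere mostly methylated. Among tiles with 10 to 19 CpGs, 81 of 157 Hox tiles were low in the WT head (51.6%), against 0.682% of 439673 tiles of that class in the genome, and the median tile stood at 8.62% against 84.4%. Under 10 CpGs, 24 of 61 Hox tiles were low (39.3%), against 0.357% in the genome. Tiles with 20 to 39 CpGs were low in 89.6% of cases (138 of 154) against 8.76%, and all 101 Hox tiles with 40 or more CpGs were low in both heads, against 75.1% of such tiles in the genome in the WT head. Of the low Hox tiles in the WT head, 105 had fewer than 20 CpGs. Of the 66 high ones, 61 did.

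**Figure D2:**
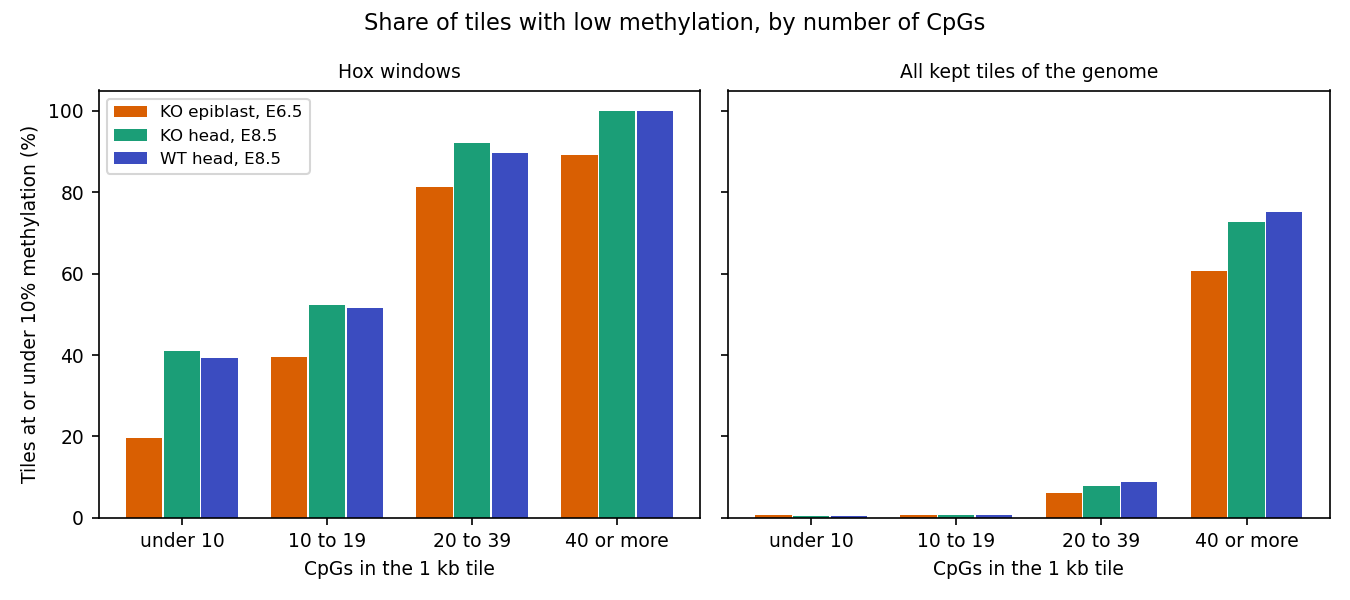
Bars give the percentage of tiles at or under 10% methylation by the number of CpGs in the tile, for the Hox windows at left and all kept tiles of the genome at right, in the 3 pools. The Hox bars are above the genome's in every class and pool, and in the class of 10 to 19 CpGs the WT head stands at 51.6% against 0.682%.

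The extremes of each cluster in the WT head, among tiles with at least 30 reads per pool, show the same division. The lowest tiles held no methylated read, with 0 of 204 in Hoxa (chr6:52120000-52120999), 0 of 299 in Hoxb (chr11:96148000-96148999), 0 of 203 in Hoxc (chr15:102786000-102786999) and 0 of 261 in Hoxd (chr2:74571000-74571999). A count of 0 allows levels of up to 1.47%, 1.003%, 1.48% and 1.15% in these tiles. The highest were chr11:96078000-96078999 in Hoxb, with 43 of 47 reads (91.5%), and chr2:74643000-74643999 in Hoxd, with 35 of 42 (83.3%). Hoxa and Hoxc had no tile near that with 30 reads in each pool. Their highest were 19.1% (18 of 94 reads, chr6:52185000-52185999) and 10.4% (10 of 96 reads, chr15:102748000-102748999). For Hoxa this depends on the read minimum: its 18 high tiles of the WT head all had under 30 reads in some pool. Among them was a tile with 20 to 39 CpGs at 73.8% in the WT head. Hoxc had 0 high tiles in that pool.

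The first comparison asked whether Hox methylation differed between KO and WT heads at E8.5. Over all 4 clusters, the KO head differed from the WT head by -0.323 points (Newcombe 95% interval -0.654 to 0.00814). Hoxa differed by -0.227 points (-0.846 to 0.395), Hoxc by -0.348 points (-0.803 to 0.103) and Hoxd by 0.422 points (-0.172 to 1.02), each interval spanning 0. The Hoxb interval left out 0, at -1.19 points (-2.01 to -0.372). Between the outermost placed Hoxb promoters, which leaves out the methylated stretch and the sides, the Hoxb difference was 0.211 points (-0.375 to 0.799). Which intervals left out 0 depended on the setting. That of Hoxb spanned 0 with a minimum of 20 reads (-1.16 to 0.289) and on the second strand alone (-1.50 to 0.585) or the first (-1.53 to 0.6898). That of Hoxd left out 0 on the other side with 20 reads, at 0.6597 points (0.178 to 1.15), and on the second strand, at 0.906 points (0.263 to 1.56), and that of all 4 clusters left out 0 with 5 reads (-0.717 to -0.0130). The genome differed by -0.420 points.

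By summed reads, the KO head stood lower in Hox tiles with fewer than 20 CpGs. Hox tiles with under 10 CpGs differed between KO and WT heads by -4.78 points (Newcombe 95% interval -8.66 to -0.874) and those with 10 to 19 CpGs by -2.33 points (-4.06 to -0.596), beside -0.953 and -0.8503 in the genome. The median tile of these classes differed by -3.33 and 0.673 points. At 20 to 39 CpGs the Hox difference was -0.332 points (-0.912 to 0.249), and at 40 or more 0.108 points (-0.113 to 0.3296), beside 0.736 in the genome.

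Tile by tile, 229 of 473 were higher in the KO head, 218 lower and 26 equal, with a median difference of 0 points. With Fisher's exact test (two-sided, p adjusted over all 710364 tiles by Benjamini-Hochberg, called at an adjusted p under 0.05 and a difference of at least 20 points), 0 Hox tiles were called higher and 0 lower. Of all kept tiles, 0.16% were called higher and 0.135% lower. At an unadjusted p under 0.05, 15 Hox tiles were higher (3.17%) and 17 lower (3.59%), 6.77% in all against 8.55% of the genome's tiles. Without the test, 7 tiles were at least 20 points higher (1.48%) and 13 lower (2.75%), against 6.1% and 7.22% of all kept tiles. A difference of that size towards lower levels was possible for 99 of 473 tiles, those at 20% or more in the WT head.

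The well-read tiles with the largest head differences lay in different clusters. A Hoxd tile between Hoxd3 and Hoxd1, chr2:74554000-74554999, had 33 of 79 reads methylated in the WT head (41.8%), 7 of 37 in the KO head (18.9%) and 9 of 54 in the KO epiblast (16.7%), and the Fisher test gave an adjusted p of 0.443. Next below were Hoxb chr11:96088000-96088999, inside the methylated stretch, at 77.6% in the KO head and 89.1% in the WT head, and Hoxa chr6:52172000-52172999, at 0% and 10.5%. In the other direction, Hoxb chr11:96175000-96175999 stood at 13.3% and 3.28%, Hoxa chr6:52170000-52170999 at 14.3% and 5%, and Hoxa chr6:52198000-52198999 at 8.25% and 0%. None of these 6 passed the test, with adjusted p from 0.443 to 0.871.

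Few tiles crossed the low threshold between the heads. Both pools were low at 322 tiles and both high at 55. A further 28 were low in the KO head alone of these pools and 22 in the WT head alone. In 0 tiles was 1 head pool low and the other high.

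The second comparison set KO heads at E8.5 against KO epiblast at E6.5, in which tissue and stage differ together and cannot be told apart. It shares the KO head pool with the comparison above. All 4 clusters had lower levels in the head, with differences of -5.27 points in Hoxd (Newcombe 95% interval -6.19 to -4.37), -4.67 in Hoxa (-5.56 to -3.81), -3.12 in Hoxc (-3.87 to -2.42) and -2.57 in Hoxb (-3.57 to -1.59). Together they differed by -4.07 points (-4.53 to -3.62). Hox tiles with 40 or more CpGs held 23906 of 41790 reads in the KO head and 11852 of 23880 in the KO epiblast. Summed differences thus mix methylation with where the reads of each pool fell, which the intervals do not cover. The sizes also depend on how tiles were weighted. With every tile counted equally, the differences were -2.38 points in all, -2.14 in Hoxd and -1.95 in Hoxa, and the median tile differed by -0.952 points. Between the outermost placed Hoxd promoters the Hoxd difference was -3.13 points, and on the second strand alone the Hoxb difference was -1.14 points (-2.35 to 0.0408).

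**Figure D3:**
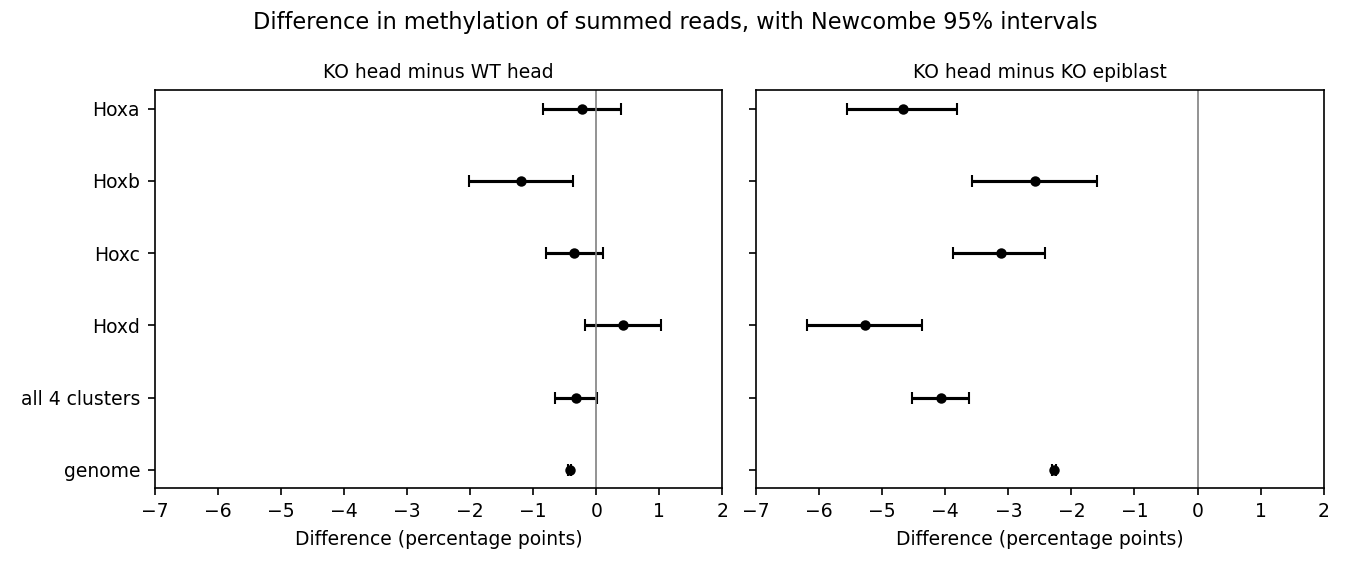
Points give the difference in methylation of summed reads, in percentage points, with Newcombe 95% intervals, for each cluster, all 4 together and all kept tiles of the genome. At left (KO head minus WT head) the values lie between -1.19 and 0.422. At right (KO head minus KO epiblast) all clusters lie below 0, from -5.27 in Hoxd to -2.57 in Hoxb. Summed differences also depend on where the reads of each pool fell.

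Hox tiles and other tiles are set side by side here by CpG number, without a test between them. The genome as a whole was lower in the KO head by summed reads, at -2.27 points, and higher by the median tile, at 1.88 points. Its tiles with 40 or more CpGs held 5961325 of 28593787 reads in the KO head and 3053594 of 19999127 in the KO epiblast. The summed difference thus also depends on where the reads of each pool fell. By CpG class, the genome was lower only at 40 or more CpGs, with a difference of 0.384 points at 20 to 39. Genome tiles with under 10 CpGs were higher by 3.31 points and those with 10 to 19 CpGs by 3.53 points, while Hox tiles of these classes differed by -6.69 points (-10.9 to -2.44) and -2.15 points (-4.09 to -0.231). In tiles with 40 or more CpGs the difference was -3.79 points (-4.24 to -3.36) in the Hox windows and -3.91 in the genome. Hox tiles of 40 or more CpGs held 5.45% in the KO epiblast, 1.66% in the KO head and 1.55% in the WT head, against 13.3%, 9.39% and 8.66% for such tiles in the genome.

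CpG-dense Hox tiles passed 10% in the epiblast pool only. In the genome, 60.5% of tiles with 40 or more CpGs were low in the KO epiblast, 72.6% in the KO head and 75.1% in the WT head. In the Hox windows, 89.1% of such tiles were low in the KO epiblast and 100% in both heads. Of the 101 Hox tiles with 40 or more CpGs, 11 passed 10% in the KO epiblast and 0 in either head. They were 5 in Hoxa, 2 in Hoxb, 1 in Hoxc and 3 in Hoxd. Their epiblast levels ran from 10.7% (3 of 28 reads) to 25.2% and their head levels from 0.444% to 7.65%. One was the Evx2 promoter tile (chr2:74497000-74497999), with 17 of 140 reads in the KO epiblast (12.1%), 13 of 258 in the KO head (5.04%) and 1 of 216 in the WT head (0.463%). Evx2 is the homeobox gene next to Hoxd13.

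By the same test as above, 1 Hox tile was called higher in the KO head (0.211%, against 1.51% of all kept tiles) and 3 were called lower (0.634%, against 0.706%). Neither share was above the genome's. At an unadjusted p under 0.05, 10 tiles were higher and 54 lower, 13.5% in all against 13.9% of the genome. Without the test, 19 were at least 20 points higher (4.02%, against 14.8%) and 32 lower (6.77%, against 8.63%). In the KO epiblast, 131 of 473 tiles stood at 20% or more and could fall that far.

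The strongest call was the tile of the Hoxa13 start, chr6:52210000-52210999, the CpG-richest of the 4 called tiles with 153 CpGs. It held 107 of 492 reads methylated in the KO epiblast (21.7%, Wilson 95% interval 18.3 to 25.6), 5 of 605 in the KO head (0.826%, 0.354 to 1.92) and 23 of 968 in the WT head (2.38%, 1.59 to 3.54). Both head pools were low and the epiblast pool was the odd one out. The KO pools differed by -20.9 points (Fisher's exact test, adjusted p = 9.01e-30). Methylated reads in the epiblast covered 46 of the 122 CpGs with reads, from chr6:52210130 to chr6:52210988, on both strands (29 of 262 reads and 78 of 230). The Hoxa13 promoter shown above, which overlaps this tile, held 16 of 122 reads in the KO epiblast (13.1%), 4 of 138 in the KO head (2.90%) and 10 of 237 in the WT head (4.22%). Hoxa13 acts at the posterior end of the axis and in limb ends, and its RNA was listed at 0 in all 4 RNA columns.

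The other 2 tiles called lower rested on fewer CpGs. At chr6:52175000-52175999, in Hoxa between the placed starts of Hoxa7 and Hoxa10, 34 of 135 reads were methylated in the KO epiblast (25.2%), 4 of 230 in the KO head (1.74%) and 7 of 252 in the WT head (2.78%), with a difference between the KO pools of -23.4 points (Fisher's exact test, adjusted p = 1.98e-09). All 34 methylated epiblast reads lay on 1 strand, at 9 CpGs between chr6:52175794 and chr6:52175833, and the other strand held 0 of 77. At chr11:96206000-96206999, in Hoxb, 35 of 142 reads were methylated in the KO epiblast (24.6%), 3 of 115 in the KO head (2.61%) and 3 of 108 in the WT head (2.78%), a difference of -22.0 points (Fisher's exact test, adjusted p = 6.23e-05). There the strands held 31 of 65 and 4 of 77 reads in the epiblast, at 12 CpGs. How many DNA fragments gave these reads was not tested, and the Fisher test counts each read of a CpG as independent.

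The tile called higher lies next to the methylated 20 kb of Hoxb. At chr11:96079000-96079999, 8 of 18 reads were methylated in the KO epiblast (44.4%, Wilson 95% interval 24.6 to 66.3), 42 of 48 in the KO head (87.5%, 75.3 to 94.1) and 30 of 32 in the WT head (93.8%, 79.9 to 98.3). Fisher's exact test gave an adjusted p of 0.0325 for a difference of 43.1 points. The call rests on 18 epiblast reads and was lost with a minimum of 5 reads per tile, which tests more tiles, with a minimum of 20, and with either strand alone. Its neighbour chr11:96078000-96078999 went from 71.7% (33 of 46 reads) to 90.8% (59 of 65), and chr11:96100000-96100999 from 67.7% (21 of 31) to 87.2% (34 of 39), neither past the test (adjusted p of 0.17 and 0.441).

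Other well-read tiles with large stage differences were not called. Hoxd chr2:74492000-74492999, near the Evx2 side, held 36.4% in the KO epiblast (12 of 33 reads), 13.8% in the KO head (8 of 58) and 12.3% in the WT head (9 of 73). Hoxd chr2:74553000-74553999 held 2.13%, 16.2% and 11.5%. In Hoxc, chr15:102748000-102748999 went from 18.3% (15 of 82 reads) to 1.52% (2 of 132), with an adjusted p of 0.00204 and a difference of -16.8 points, under the 20 points asked for, and the WT head stood at 10.4%.

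**Figure D4:**
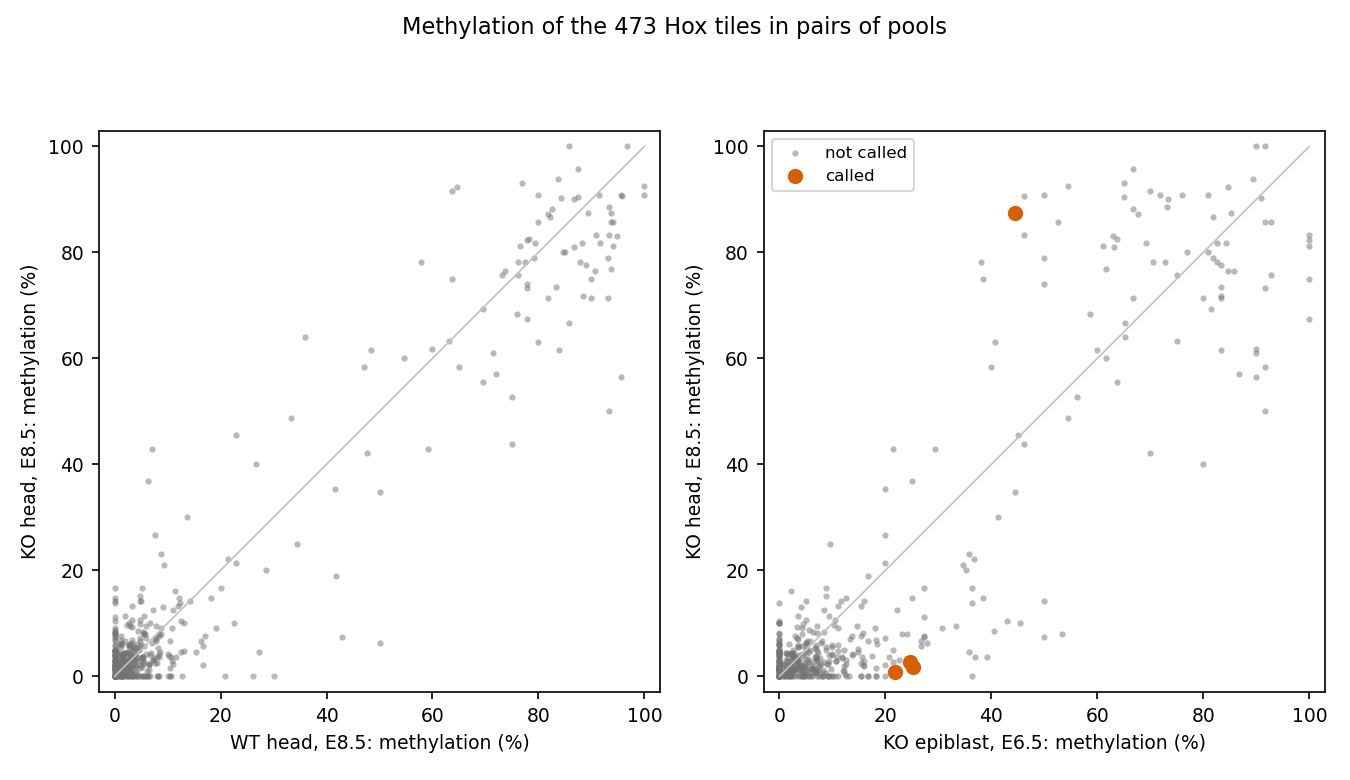
Each point is 1 of the 473 tiles, with its CpG methylation in percent in 2 pools, WT head against KO head at left and KO epiblast against KO head at right; the line marks equal levels and large points the called tiles. No tile is called at left, and 4 are at right, 3 below the line and 1 above it.

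Most promoters with enough reads were low in each pool, in the Hox windows and in the genome. Of the 35 placed promoter windows in the 4 clusters, 29 had at least 10 reads in each pool, and 24 of them were low in the KO epiblast, 28 in the KO head and 28 in the WT head. Genome-wide, 75.1%, 84.3% and 85.6% of 14397 placed promoters were low in these pools, beside 82.8%, 96.6% and 96.6% in the Hox windows. Windows that overlap and share reads, such as those of Gm30134, were counted apart. For the 17 windows of Hox genes proper (16 genes, Hoxa10 having 2), summed levels were 5.58% in the KO epiblast (40 of 717 reads, 4.12 to 7.51), 1.75% in the KO head (26 of 1489, 1.19 to 2.55) and 1.86% in the WT head (30 of 1614, 1.31 to 2.64). Over all 14397 placed promoters of the genome, summed levels were also higher in the KO epiblast, at 7.43%, against 4.24% in the KO head and 3.83% in the WT head.

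Several promoters were read deeply and held almost no methylation. Hoxa6 had 0 of 12 reads methylated in the KO epiblast, 0 of 203 in the KO head and 0 of 94 in the WT head, which allow levels of up to 25%, 1.48% and 3.19%. Hoxd11 had 0 of 50, 1 of 103 and 0 of 155, and Hoxd10 0 of 47, 1 of 79 and 0 of 81. Hoxd1, the 3′ gene of its cluster, had 1 of 22, 0 of 130 and 3 of 310. The intervals of these 4 promoters overlap in each pool.

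Some promoters stood higher in the epiblast pool than in the heads. Hoxd13, a gene of the digits and the posterior axis, held 6 of 40 reads in the KO epiblast (15%, Wilson 95% interval 7.06 to 29.1), 1 of 202 in the KO head (0.495%) and 5 of 149 in the WT head (3.36%). Hoxd9 held 10 of 113 (8.85%), 1 of 54 (1.85%) and 0 of 71, the last allowing up to 4.23%. Evx2 held 6 of 22 (27.3%), 4 of 57 (7.02%) and 1 of 39 (2.56%). Hoxb3os, antisense to Hoxb3, held 7 of 44 (15.9%) in the KO epiblast and 0 of 102 and 0 of 153 in the heads. One of the windows of Gm38462, between Hoxd8 and Hoxd3, held 19 of 86 (22.1%), 0 of 133 and 8 of 295 (2.71%). Next to Hoxd13, Hoxd12 held 1 of 21 (4.76%), 0 of 18 and 3 of 42 (7.14%), and Hoxd11 and Hoxd10, given above, held no methylated read in the epiblast. These promoters were picked out after their values were seen and were not tested one by one.

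Hoxb8 was the one Hox promoter above 10% in both heads. It had 0 of 25 reads methylated in the KO epiblast, 4 of 34 in the KO head (11.8%, Wilson 95% interval 4.67 to 26.6) and 3 of 18 in the WT head (16.7%, 5.84 to 39.2). Its interval reaches the levels of other promoters. Hoxc4 had 0 of 14, 2 of 39 (5.13%) and 0 of 32, Hoxb4 0 of 61, 2 of 61 (3.28%) and 1 of 80 (1.25%), and Hoxa5 4 of 83 (4.82%), 4 of 118 (3.39%) and 2 of 104 (1.92%).

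**Figure D5:**
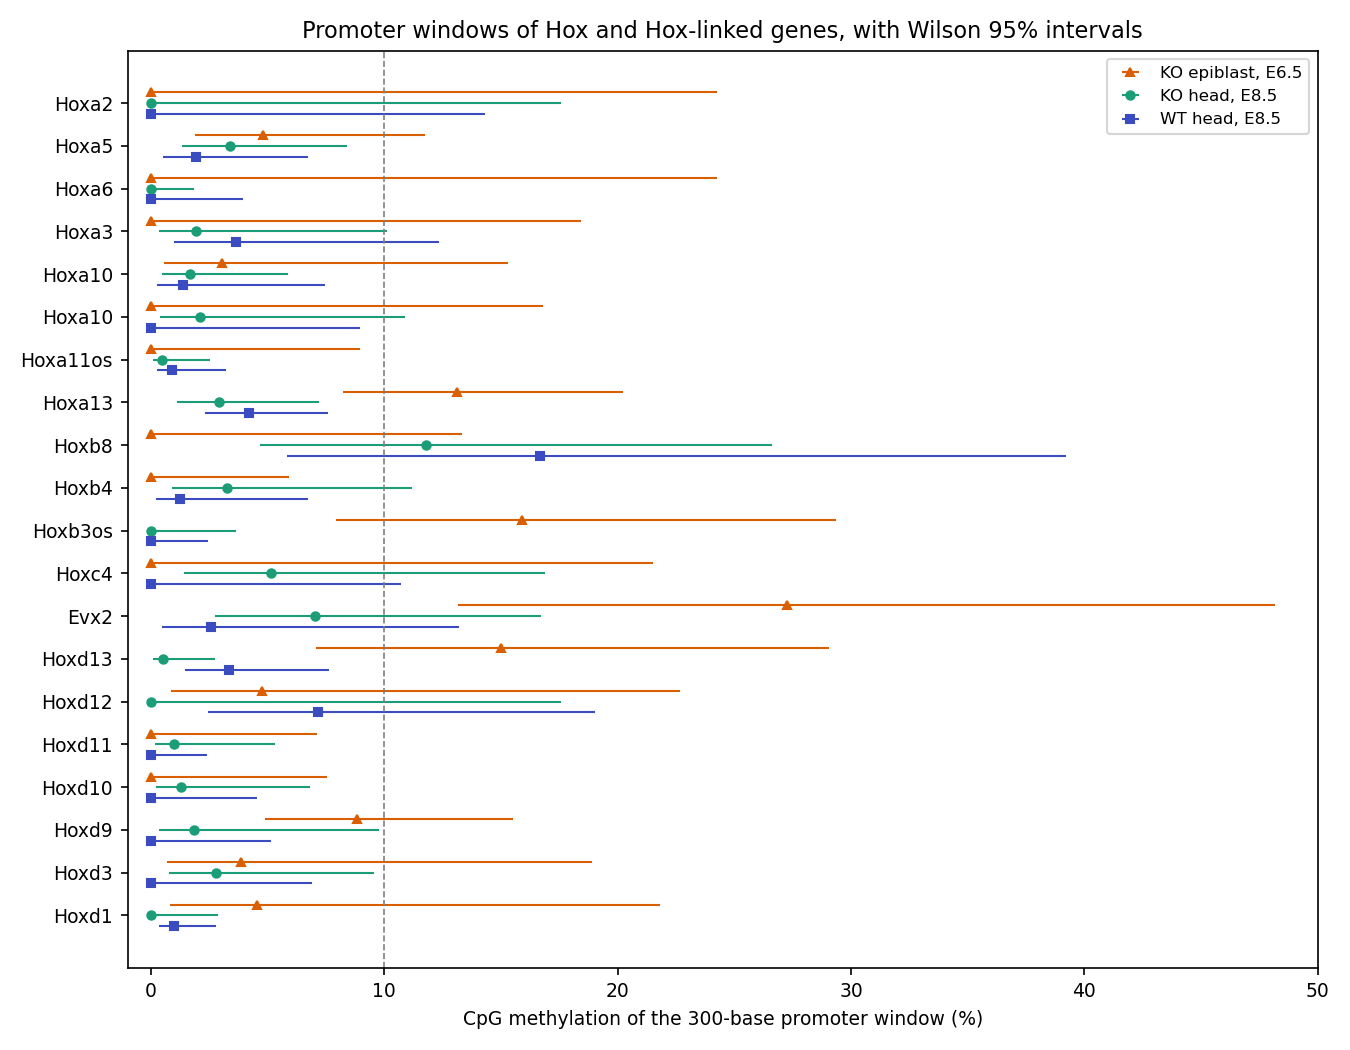
Points give the CpG methylation in percent of 20 promoter windows of Hox genes, Evx2 and 2 antisense transcripts, in order along each cluster, with Wilson 95% intervals, in the 3 pools. Most points lie under 10% (dashed line); Hoxa13, Hoxb3os, Evx2 and Hoxd13 pass it in the KO epiblast and Hoxb8 in both heads.

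RNA of the Hox genes was set beside the methylation, from other samples of the same tissues. The authors deposited 1 merged column of FPKM (fragments counted per transcript length and per library size) per group, so there is no spread and no test. Of 38 Hox genes described, 0 reached 1 FPKM in the WT or KO epiblast, 1 did in the WT head and 3 in the KO head. Between 22 and 31 of the 38 were listed at 0 in a column. The low methylation of the clusters was thus measured in tissues in which nearly all Hox RNA was at or near 0.

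The 3 genes above 1 FPKM lie towards the 3′ end. Hoxb1 was at 0.223 FPKM in the WT head and 4.39 in the KO head, and Hoxb2 at 0.911 and 5.78, which are log2 differences of 2.14 and 1.83 on FPKM plus 1. Hoxa2 was at 1.05 and 1.44 FPKM, a log2 difference of 0.25. Of these 3 genes with at least 1 FPKM in either head column, 2 were thus at least 2-fold higher in the KO head and 0 lower, beside 2.42% of 10501 genes higher and 2.73% lower. Hoxb1, Hoxa2 and Hoxb2 are known for their part in patterning the hindbrain.

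The placed promoters of Hoxb1 and Hoxa2 held no methylated read, and no promoter window of Hoxb2 was used here. The Hoxb1 promoter held 0 of 31 reads in the KO head and 0 of 20 in the WT head, allowing up to 9.68% and 15%, and had 2 reads in the KO epiblast. The Hoxa2 promoter held 0 of 12 reads in the KO epiblast, 0 of 18 in the KO head and 0 of 23 in the WT head, allowing up to 25%, 16.7% and 13.0%. A difference within these limits could not be seen at this depth.

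Markers moved with this RNA difference. Of markers of the labelled tissues, Pou5f1 stood at 245 FPKM in the WT epiblast, and all 8 head markers reached 1 FPKM in a head column. Of the epiblast markers Pou5f1, Fgf5, Otx2, Nanog and T, 3 of 5 were at least 2-fold higher in the KO head column, with Pou5f1 at 3.91 FPKM in the WT head and 16.9 in the KO head and Nanog at 1.59 and 8.27. Of the 8 head markers, Pax6 (19.5 and 4.59) and Lhx2 (7.68 and 1.77), both forebrain genes, were at least 2-fold lower and the hindbrain gene Egr2 (0.513 and 5.38) higher. The blood globins Hbb-bh1 (45.9 and 2.45) and Hba-x (33.0 and 0.820) were lower, and Afp was listed at 0 in both heads. Of the 7 markers of other cells, 3 were at 1 FPKM or more in a head column, both globins and Myl7, a gene of heart muscle, at 39.4 FPKM in the WT head and 50.2 in the KO head. The part of these markers in the Hox RNA difference was not tested, and in bulk tissue more cells of a type and more RNA per cell cannot be told apart. Wbp7, the targeted gene, was at 0.6003 FPKM in the WT head and 0.133 in the KO head, and at 0.7006 and 0.308 in the epiblasts.

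Among genes of the methylation and Polycomb machinery, 1 differed 2-fold between the heads. Of 8 DNA methylation genes, 6 were at 1 FPKM or more in a head column and 0 of them differed 2-fold. Dnmt3b, a de novo methyltransferase, was at 55.2 FPKM in the WT head and 93.4 in the KO head, and at 614 and 726 in the epiblasts. Among 9 Polycomb genes, Cbx7 was at least 2-fold higher in the KO head (0.864 and 4.50 FPKM) and stood at 19.3 and 23.9 in the epiblasts. Ezh2, the main methyltransferase of the complex, stood at 65.5 and 58.9 in the heads. Of all 10501 genes compared between the heads, 2.42% were at least 2-fold higher in the KO and 2.73% lower. In the epiblasts, 0 of 7 DNA methylation genes and 0 of 9 Polycomb genes at 1 FPKM or more differed 2-fold, beside 1.34% of 10409 genes higher in the KO and 0.788% lower.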

How the data were processed

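CpG methylation was measured by STEM-seq (bisulfite) and RNA by Smart-seq2, per the labels' protocols. The methylation files deposited by the authors hold 21342492 CpGs in mm9 with whole-number read counts and no header, each pooling the replicates of its group, per the labels. Columns 3 and 5 were read as methylated and 4 and 6 as unmethylated reads of each strand. Whether positions count from 0 or 1 is not given in the sources used here. Trim Galore and BS-Seeker2, and for RNA TopHat2 2.0.11 and Cufflinks 2.0.2, are named in the submitters' processing notes; filters and conversion rates are not given in the sources used here. For RNA, the authors deposited FPKM, 1 merged column per group (3 WT and 3 KO epiblasts, 3 WT and 2 KO heads). Sorted values of 1 FPKM or more differed between columns by at most 0.507%, so the columns share nearly 1 distribution of values. A shift in RNA shared by most genes would not show in them. RNA depth is unknown. The RNA table holds 8 columns, of which 4 were used. Of the columns left out, 2 match no listed sample.

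Reads were summed per 1000 bp tile with at least 10 reads in each pool, with total depths of 29138288 (KO epiblast), 42047812 (KO head) and 45262929 reads (WT head), or 1.37, 1.97 and 2.12 reads per CpG. Levels have Wilson and differences Newcombe 95% intervals. Fisher's exact test was run per tile over the genome. RNA was compared at 1 FPKM or more in either column, as log2 of FPKM plus 1. Of 32851 promoter windows in the RefSeq table (GRCm38.p6), 18541 had at least 6 CpGs and 18284 of these matched 1 place in mm9, 18284 on the same chromosome. The upper limit allowed by a count of 0 is 3 counts of the total.

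Tiles named were every called Hox tile, the 3 largest differences in each direction and the extremes of each cluster among tiles with at least 30 reads per pool, the longest low runs and the tiles of placed promoters. RNA genes named come from lists of Hox, DNA methylation, Polycomb, Cdx and marker genes; 1 item is not reported here. The tiles, lists and tests were chosen with earlier results of these data known. Alternatives changed the read minimum, tile size, strand, weighting, thresholds, window limits, pseudocount and FPKM minimum. Equal weighting of tiles was added after seeing the data. Python 3.11.15, numpy 2.4.6, scipy 1.17.1, statsmodels 0.14.6, numba 0.67.0, pandas 2.3.3 and matplotlib 3.10.9 were used.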

Additional observations from a re-analysis of the deposited data

How the results depend on the processing

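No paired analysis was possible because each file pools the replicates of its group, and no sample could be left out for the same reason. Lower levels in the KO head than in the KO epiblast held in 53 of 53 values. These count the main setting as well as the alternatives, and all 4 clusters together as well as single clusters. Counts of Hox genes differing 2-fold in RNA stayed the same in 8 of 8 values, but the settings left little room for change. On FPKM plus 1, a gene under 1 FPKM in both columns cannot reach 2-fold, and no Hox gene reached 1 FPKM in the epiblasts. Of the longest low runs, 16 of 48 values moved by over 1.5 times. The cause of the differences below was not tested. The share of low tiles in the KO epiblast, the KO head and the WT head was 44.2%, 58.6% and 59.2% with low set at 5%, 73.6%, 79.9% and 79.3% at 20%, 53.3%, 64.98% and 64.0% with a minimum of 5 reads, and 76.6%, 88.1% and 87.5% with 20 reads. In the head comparison, 7 tiles were higher and 13 lower at 20 points without the test, the Hoxb difference turned to 0.211 points between the outermost placed promoters, Hoxa stood at 0.399 points on the first strand, and all 4 clusters at 0.0511 points on the second. For KO head against KO epiblast, tiles called lower were 8 at 10 points, 0 at 30 points, 32 without the test, and 5 with a minimum of 20 reads or tiles of 500 bp. Tiles called higher were 19 without the test, 2 with 2 kb tiles, and 0 with a minimum of 5 or 20 reads, 500 bp tiles, either strand alone or between the outermost placed promoters. The difference over all 4 clusters was -3.35 points with a minimum of 20 reads, -3.57 with 500 bp tiles, -3.46 and -3.32 on the first and second strand, and -2.38 with tiles weighted equally. Hoxd stood at -3.84, -4.19, -3.89, -3.42 and -2.14 points under these settings and -3.13 between the outermost placed promoters, Hoxb at -1.14 on the second strand, and Hoxa at -3.63 as a mean over CpGs with 3 or more reads and -1.95 with tiles weighted equally. The limit to the outermost promoters could not be set for Hoxc, where 1 Hox gene was placed. Depth of 1.37 to 2.12 reads per CpG limits single tiles: at 10 reads, a level of 0 allows up to 30% methylation.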
